A study of Sus scrofa with 16 samples.

Results

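The genes CRYAB, HSPB7, HSP90B1 and DNAJA1 encode heat shock proteins and chaperones, and they were followed through 2 skeletal muscles of the pig at 2 feeding levels. All probe sets whose single gene symbol in the platform annotation was one of these 4 symbols were taken, which gave 7 of the 24123 probe sets in the table. CRYAB, HSP90B1 and DNAJA1 each had 2 probe sets and HSPB7 had 1. All 7 were among the 11467 probe sets that reached a log2 value of 4 on at least 4 of the 16 arrays. The genes were chosen with their values by feeding level and by muscle in view, so those differences are given here as a description, without a test, and the test across sex is the one that the choice did not use.

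The 16 Affymetrix arrays came from the diaphragm, the main breathing muscle, and the psoas major, a loin muscle, of 8 Iberian pigs aged 211 days. The high feeding level was given to animals 1 and 4 (male) and 6 and 7 (female). Animals 2 and 3 (male) and 5 and 8 (female) had their feed restricted by 20%, titled as the low feeding level. All 8 had eaten the same pelleted diet before the restriction, and when it began is not given in the sources used here. Both muscles of every animal were hybridised, and a feeding level within a muscle is therefore 4 animals, 2 of each sex.

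Chaperones bind unfolded or damaged proteins and keep them from aggregating, and several of them are induced together by heat shock factors when proteins are under stress. Small heat shock proteins hold client proteins without using ATP, whereas HSP70, assisted by J-domain proteins such as DNAJA1, and HSP90 refold or mature them in ATP-driven cycles. In striated muscle the small heat shock proteins protect the contractile apparatus, and the endoplasmic reticulum has chaperones of its own for secreted and membrane proteins.

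Agreement between arrays was high, with pairwise correlations over all probe sets of 0.961 to 0.987 within the diaphragm and 0.956 to 0.985 within the psoas. The summarised level of the skeletal muscle markers was 13.80 to 14.00 on the diaphragm arrays and 14.17 to 14.38 on the psoas arrays. This list includes MYH2, which was higher in psoas by 2.74. In psoas relative to diaphragm, 6 of 9 slow fibre genes were lower and 5 of 7 fast fibre genes were higher (limma, adjusted p under 0.05). Over all tested probe sets, 14.6% were higher and 12.4% lower in psoas at this threshold. Marker lists of other cell types also differed between the muscles. Lower in psoas were 7 of 7 tested hepatocyte genes, 6 of 6 endothelial genes, 5 of 7 immune genes and 4 of 5 fibroblast genes. Of these genes, ALB, APOC3, FGB, HP, TF and COL1A2 stayed below 4 on every psoas array. They passed the filter only through the diaphragm, so their lower psoas level was largely set by the filter. SERPINA1 and TTR of the hepatocyte list and KDR and TIE1 of the endothelial list stayed below 4 on every array and were not tested. The same held for PTPRC and CD3E of the immune list and for WT1 and KRT19 of the mesothelial list. In whole tissue, fewer cells of a type and less RNA per cell cannot be told apart.

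In the psoas, 5 of the 7 member probe sets were lower by at least 0.5 log2 units under restriction, covering all 4 genes, and the other 2 were the second probe sets of CRYAB and DNAJA1. Over all tested probe sets, 3.99% were lower by that much. In the diaphragm the same 5 probe sets also had negative differences, but 1 of 7 reached that size, against 3.20% of all tested probe sets. No member, and no other tested probe set, passed an adjusted p of 0.05 for feeding in either muscle (0% in both by limma). Of the 11467, 1101 (9.60%) had an unadjusted p under 0.05 in the diaphragm and 1291 (11.3%) in the psoas. Nothing is read from these shares, since the members were chosen on these values.

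**Figure D1:**
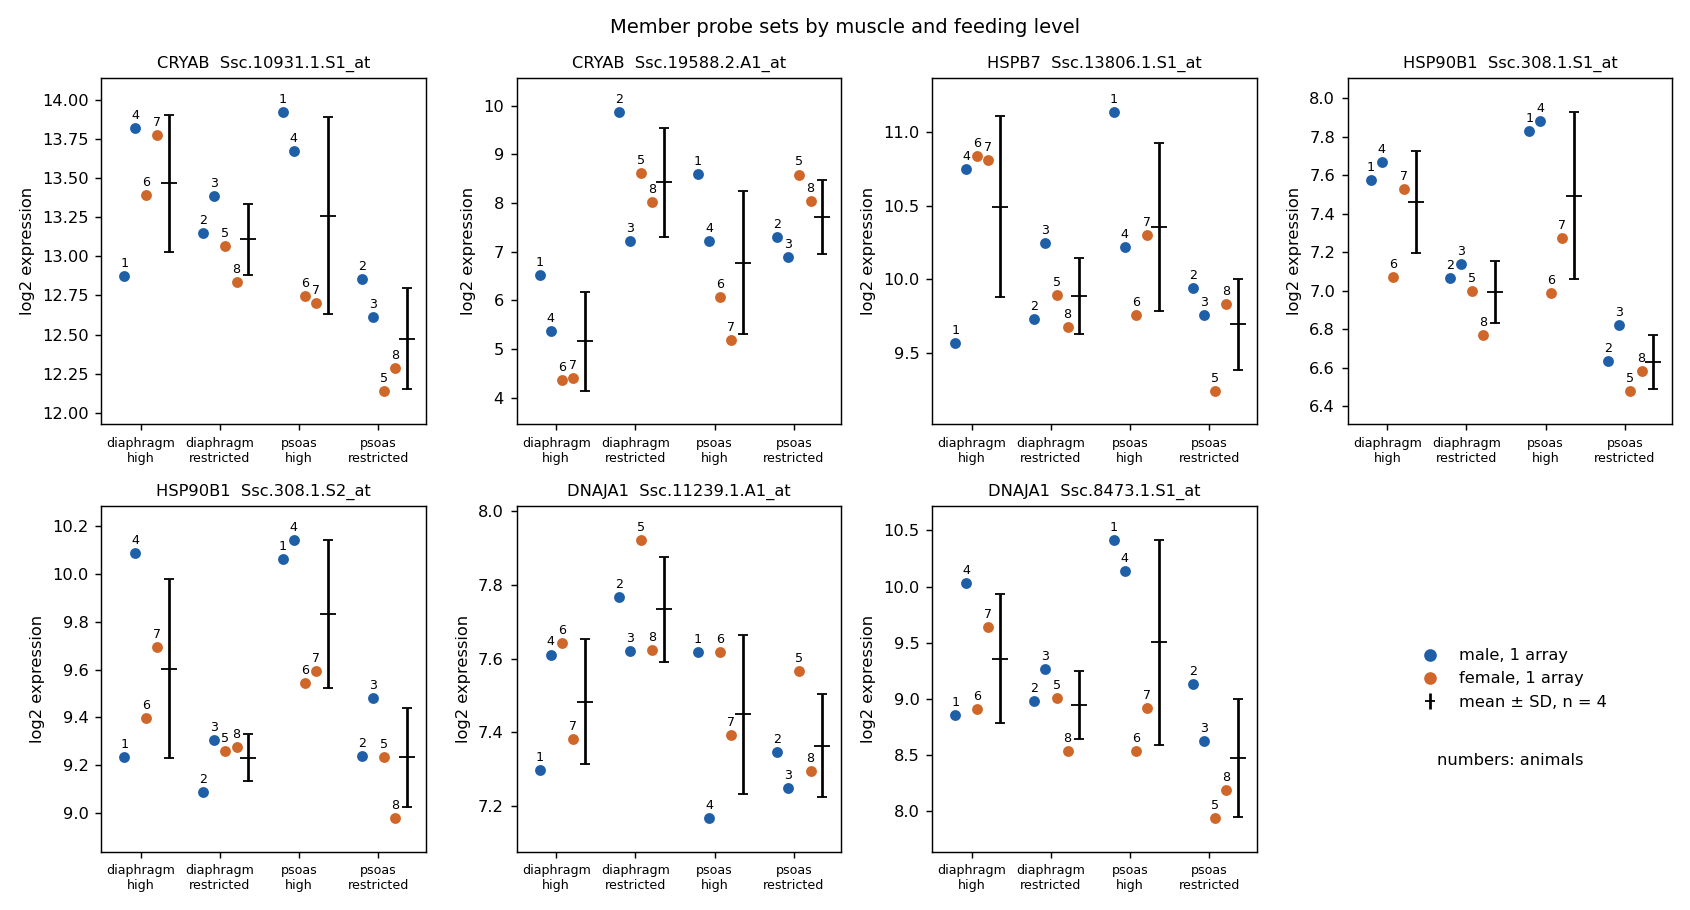
Log2 expression of the 7 member probe sets, with 1 point per array, numbered by animal and coloured by sex, in the 4 groups of muscle and feeding level; bars give the mean ± SD of 4 animals. For both HSP90B1 probe sets the restricted psoas arrays lie below the high-fed psoas arrays, and the second CRYAB probe set, Ssc.19588.2.A1_at, has its highest group mean in the restricted diaphragm.

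CRYAB encodes alpha-B crystallin, a small heat shock protein that binds desmin and actin at the Z-disc. Its probe set Ssc.10931.1.S1_at had log2 values in the diaphragm of 12.87, 13.82, 13.39 and 13.78 in the high-fed animals 1, 4, 6 and 7, and of 13.15, 13.39, 13.06 and 12.84 in the restricted animals 2, 3, 5 and 8. In the psoas it read 13.92, 13.67, 12.75 and 12.70 in the high-fed and 12.85, 12.61, 12.14 and 12.29 in the restricted animals, in the same order. The groups overlapped in both muscles: in the diaphragm through animal 1, whose high-fed value lay below 3 of the 4 restricted ones, while animals 6 and 3 read nearly the same, and in the psoas because the restricted male, animal 2, exceeded both high-fed females. Within each sex the psoas groups were apart, with differences of -1.06 in males and -0.51 in females (2 animals against 2).

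The fitted difference for this probe set, restricted minus high, was -0.79 ± 0.15 log2 units (SE, 4 animals against 4) in the psoas, a 1.72-fold lower level. In the diaphragm it was -0.36 ± 0.23, or 1.28-fold lower, and it ranged from -0.60 without animal 1 to -0.22 without animal 4 or animal 7.

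The second CRYAB probe set, Ssc.19588.2.A1_at, moved the other way. In the diaphragm it read 6.52, 5.37, 4.35 and 4.41 in the high-fed animals 1, 4, 6 and 7, and 9.87, 7.21, 8.61 and 8.02 in the restricted animals 2, 3, 5 and 8. All 4 restricted values lay above all 4 high-fed values, as they did for 2.19% of all tested probe sets, and the high-fed females were close to the level of 4 that the filter asked for. The difference was 3.27 ± 0.59 log2 units, a 9.62-fold higher level under restriction. When 1 animal was left out it ranged from 2.87 (without animal 2) to 3.93 (without animal 3).

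In the psoas the same probe set read 8.59, 7.22, 6.08 and 5.19 in the high-fed and 7.30, 6.89, 8.58 and 8.05 in the restricted animals. These groups overlapped, and the sexes ran in opposite directions: restricted females were higher by 2.68, whereas restricted males were lower by 0.81 (a difference of -0.81, with overlapping values). The fitted difference over both sexes was 0.94 ± 0.70 log2 units. It was 1.56 without animal 1, 0.48 without animal 5 and 0.41 without animal 7.

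The 2 CRYAB probe sets correlated at -0.65 over the 8 diaphragm arrays and at 0.10 over the 8 psoas arrays. In the RefSeq annotation of Sscrofa11.1, CRYAB lies beside HSPB2, a second small heat shock gene of muscle, and the array's HSPB2 probe set, Ssc.19588.1.S1_at, shares the cluster number of the second CRYAB probe set. HSPB2 itself differed by -0.15 ± 0.15 in the diaphragm and by -0.20 ± 0.16 in the psoas under restriction, and neither passed (adjusted p = 0.764 and 0.665, limma). Which transcript the second CRYAB probe set reads was not tested, and values from Ssc.10931.1.S1_at alone are used for CRYAB below unless the other is named.

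HSPB7, a small heat shock protein of heart and skeletal muscle that associates with the actin filament system, had 1 probe set. In the diaphragm it read 9.57, 10.75, 10.84 and 10.81 in the high-fed animals 1, 4, 6 and 7, and 9.73, 10.25, 9.90 and 9.68 in the restricted animals 2, 3, 5 and 8. In the psoas the values were 11.13, 10.22, 9.76 and 10.30 with high feeding and 9.95, 9.76, 9.25 and 9.83 with restriction. Animal 1 held both the lowest diaphragm value and the highest psoas value of all 8 animals. Apart from it, the high-fed diaphragm values all lay above the restricted ones.

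HSPB7 was 1.52-fold lower under restriction in the diaphragm (-0.60 ± 0.29 log2 units) and 1.58-fold lower in the psoas (-0.66 ± 0.24). Without animal 1 the diaphragm difference was -0.92 and the psoas difference -0.44, so this animal pulled them in opposite directions. In the diaphragm the females differed by -1.04 and the males, which include animal 1, by -0.17.

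HSP90B1 encodes the HSP90 of the endoplasmic reticulum, which folds integrins and Toll-like receptors among others. Its probe set Ssc.308.1.S2_at read 9.23, 10.09, 9.40 and 9.69 in the diaphragm of the high-fed animals 1, 4, 6 and 7, and 9.09, 9.30, 9.26 and 9.28 in the restricted animals 2, 3, 5 and 8. In the psoas it read 10.06, 10.14, 9.54 and 9.59 with high feeding and 9.24, 9.48, 9.23 and 8.98 with restriction. Every restricted psoas value lay below every high-fed one, as was the case for 2.56% of all tested probe sets, while the diaphragm groups overlapped through animal 1.

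The second HSP90B1 probe set, Ssc.308.1.S1_at, gave the same arrangement. In the psoas it read 7.83, 7.88, 6.99 and 7.27 in the high-fed and 6.63, 6.82, 6.48 and 6.58 in the restricted animals, again without overlap. In the diaphragm it read 7.58, 7.67, 7.07 and 7.53 with high feeding against a range of 6.77 to 7.14 with restriction, where the high-fed female 6 fell among the restricted animals. The 2 probe sets correlated at 0.96 over the psoas arrays and at 0.66 over the diaphragm arrays.

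Under restriction Ssc.308.1.S1_at was lower by 0.86 in the psoas (a difference of -0.86 ± 0.14 log2 units, 1.82-fold) and differed by -0.47 ± 0.13 in the diaphragm. For Ssc.308.1.S2_at the differences were -0.60 ± 0.12 in the psoas, 1.52-fold, and -0.37 ± 0.19 in the diaphragm, 1.29-fold, where it was -0.18 without animal 4. HSP90B1 was the member whose 2 probe sets had the same direction in both muscles and in each sex.

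DNAJA1, a J-domain partner that stimulates the ATPase of HSP70 in the cytosol, had the largest psoas difference of the 4 genes. Its probe set Ssc.8473.1.S1_at read 10.42, 10.14, 8.54 and 8.92 in the psoas of the high-fed animals 1, 4, 6 and 7, and 9.13, 8.63, 7.94 and 8.19 in the restricted animals 2, 3, 5 and 8. In the diaphragm it read 8.85, 10.03, 8.91 and 9.64 with high feeding and 8.98, 9.26, 9.01 and 8.54 with restriction. The psoas groups overlapped over both sexes, since the high-fed females lay below the restricted males' upper value, but were apart within males (-1.40) and within females (-0.66).

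The fitted difference of Ssc.8473.1.S1_at was -1.03 ± 0.20 log2 units in the psoas, a 2.04-fold lower level, and -0.41 ± 0.28 in the diaphragm. The diaphragm value was -0.66 without animal 1, -0.25 without animal 7 and -0.19 without animal 4. The other DNAJA1 probe set, Ssc.11239.1.A1_at, did not follow it, with correlations of -0.15 over the diaphragm and -0.09 over the psoas arrays. It ranged from 7.30 to 7.64 in the high-fed and from 7.62 to 7.92 in the restricted diaphragm, a difference of 0.25 ± 0.13. In the psoas it ranged from 7.17 to 7.62 and from 7.25 to 7.57, a difference of -0.08 ± 0.14 whose sign turned without animal 1.

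**Figure D2:**
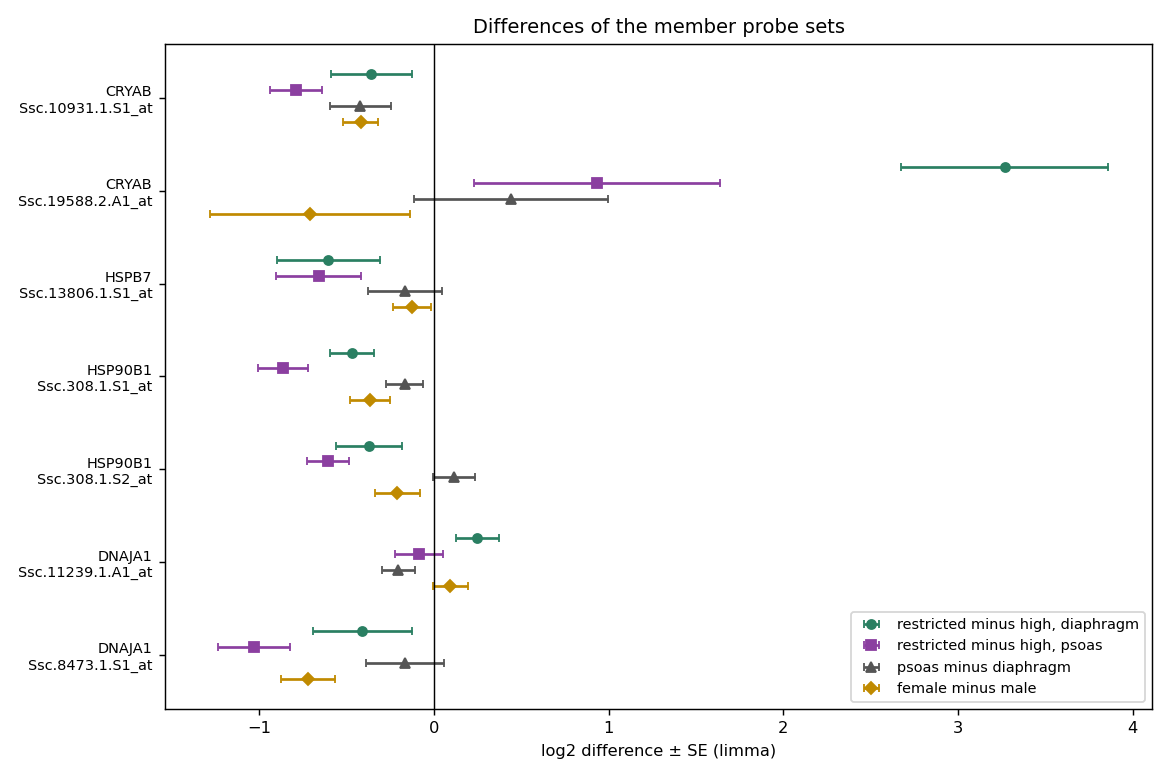
Fitted log2 differences of the 7 member probe sets, with SE bars, for restricted minus high feeding in each muscle, psoas minus diaphragm, and female minus male. The psoas feeding differences lie furthest below 0 for DNAJA1 Ssc.8473.1.S1_at (-1.03) and HSP90B1 Ssc.308.1.S1_at (-0.86), and the second CRYAB probe set stands alone at 3.27 in the diaphragm.

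An RNA quality measure was unevenly spread over the diaphragm arrays. The log2 difference between the 3' and 5' actin control probe sets, which grows as RNA is shortened, was 4.28 in the high-fed animal 1 and 3.35 to 3.49 in the other high-fed diaphragms. Among restricted diaphragms it was 4.07 to 4.33 in animals 2, 3 and 5 and 3.36 in animal 8, and in the psoas it stayed between 3.07 and 3.85. With this measure as a covariate the diaphragm differences were -0.20 for CRYAB, 2.83 for its second probe set, -0.39 for HSPB7, -0.48 for HSP90B1 Ssc.308.1.S1_at, -0.20 for Ssc.308.1.S2_at and -0.25 for DNAJA1 Ssc.8473.1.S1_at. The psoas differences were then -0.85, 0.71, -0.77, -0.86, -0.56 and -1.07 in the same order.

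Markers of other cell types did not pass for feeding in either muscle (0 genes of any list, limma), as no tested probe set did. The hepatocyte list had a mean log2 level of 4.55 to 6.25 in high-fed and 3.26 to 6.49 in restricted diaphragms, and 2.91 to 3.36 in the psoas. The immune list lay at 5.78 to 6.66 and 5.58 to 6.03 in the diaphragm and at 5.29 to 5.79 and 5.21 to 5.62 in the psoas. Of its 7 tested genes, 7 had a negative difference in the diaphragm (median -0.43) and 6 in the psoas (median -0.35). Over all tested probe sets 53.0% and 53.9% were negative. At an unadjusted p under 0.05 (limma) 2 and 1 immune genes were lower, beside 5.44% and 6.78% of all tested probe sets. The 7 tested hepatocyte genes had medians of -1.24 in the diaphragm and 0.12 in the psoas, with 6 and 2 negative. The part of these cell types in the feeding differences was not tested.

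CRYAB had the most regular difference between the muscles, but none of the 7 member probe sets passed for psoas minus diaphragm, against 27.0% of all tested probe sets (3094 by limma). CRYAB was lower in psoas in 7 of 8 animals, by a mean of 0.42 (a difference of -0.42 ± 0.17), with animal 1 the exception at 1.05 higher. HSPB7 differed by -0.16 ± 0.21 and DNAJA1 Ssc.8473.1.S1_at by -0.16 ± 0.22, each lower in psoas in 5 of 8 animals, and animal 1 was again at the other extreme, at 1.56 higher for both.

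The HSP90B1 probe sets differed between muscles by -0.17 ± 0.11 (Ssc.308.1.S1_at) and 0.12 ± 0.12 (Ssc.308.1.S2_at), so that their signs were not the same. DNAJA1 Ssc.11239.1.A1_at differed by -0.20 ± 0.10 and the second CRYAB probe set by 0.44 ± 0.55. Without animal 1 the differences were -0.63 for CRYAB, -0.41 for HSPB7 and -0.41 for DNAJA1 Ssc.8473.1.S1_at. With any 1 animal left out, CRYAB ranged from -0.63 to -0.33, HSPB7 from -0.41 to -0.03 and DNAJA1 Ssc.8473.1.S1_at from -0.41 to -0.04.

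**Figure D3:**
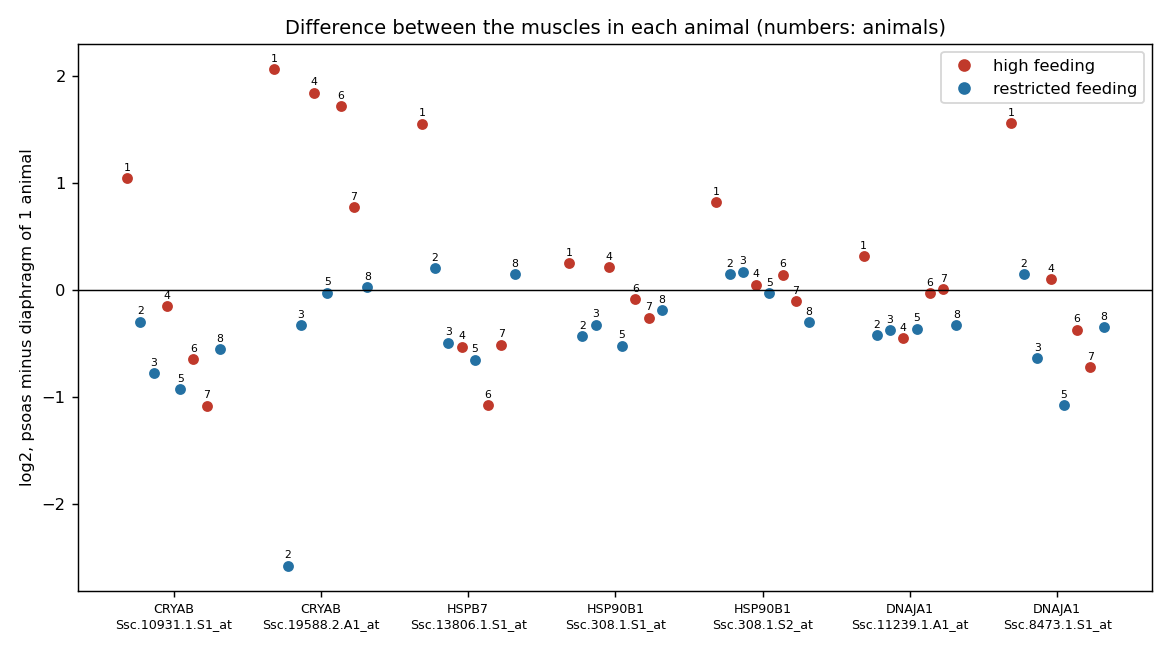
Difference between the muscles (log2, psoas minus diaphragm) within each of the 8 animals for the 7 member probe sets, coloured by feeding level. Animal 1 lies at 1.05 for CRYAB and 1.56 for HSPB7 while the other animals lie near or below 0, and for the second CRYAB probe set the 4 high-fed animals lie above the 4 restricted ones.

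The feeding difference, restricted minus high, had a lower value in psoas than in diaphragm for all 7 member probe sets, against 51.9% of all tested ones. For the second CRYAB probe set it was positive in both muscles, at 3.27 in diaphragm and 0.94 in psoas. For DNAJA1 Ssc.11239.1.A1_at it was 0.25 in diaphragm and -0.08 in psoas. Psoas minus diaphragm, this difference of differences ran from -0.62 (DNAJA1 Ssc.8473.1.S1_at) to -0.05 (HSPB7) for 6 of the 7. Its sign for HSPB7 turned without animal 1 (0.48) and without animal 3 (0.21). Without animal 1 it shrank to -0.08 for CRYAB, -0.07 for HSP90B1 Ssc.308.1.S2_at, -0.24 for DNAJA1 Ssc.8473.1.S1_at and -0.18 for Ssc.11239.1.A1_at, and without animal 3 to -0.22 for CRYAB and -0.37 for DNAJA1 Ssc.8473.1.S1_at. With the actin measure as a covariate it was -0.70 for HSPB7, -0.96 for CRYAB, -0.56 for HSP90B1 Ssc.308.1.S2_at and -1.19 for DNAJA1 Ssc.8473.1.S1_at, where it had been -0.05, -0.43, -0.23 and -0.62. The second CRYAB probe set stood apart at -2.33 ± 0.57: psoas exceeded diaphragm by 0.78 to 2.07 in the high-fed animals, while the restricted animals ranged from -2.57 to 0.03. Such non-overlap, with restricted animals lower, was seen for 1.44% of all tested probe sets. No tested probe set passed for feeding by muscle (0%, limma), and 696 (6.07%) had an unadjusted p under 0.05.

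Sex was compared on each animal's mean over both muscles, 4 females against 4 males. No member probe set passed (limma), where 21 of all tested probe sets, or 0.183%, did and 1051 (9.17%) had an unadjusted p under 0.05. DNAJA1 Ssc.8473.1.S1_at was 8.71 ± 0.41 (SD) in females and 9.43 ± 0.53 in males, a difference of -0.72 ± 0.16 (SE, adjusted p = 0.216). CRYAB was 12.87 ± 0.34 in females and 13.29 ± 0.36 in males (-0.42 ± 0.10, adjusted p = 0.251). HSP90B1 Ssc.308.1.S1_at differed by -0.36 (adjusted p = 0.414), and the remaining 4 probe sets had adjusted p from 0.702 to 0.842. The sexes overlapped for all 7 probe sets, where 2.18% of all tested probe sets had every female below every male and 2.22% every female above.

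The wider chaperone system was described with 8 gene lists, which held 85 tested genes besides the members, each read by its brightest probe set. Under restriction 67 of the 85 had a negative difference in the psoas, with a median of -0.23, against 53.9% of all tested probe sets and a median of -0.02 over them. None passed (limma), and at an unadjusted p under 0.05 there were 25 lower and 1 higher, beside 6.78% and 4.48% of all tested probe sets. In the diaphragm 62 of the 85 were negative, against 53.0% of all tested probe sets, with a median of -0.14 against -0.01 over all. None passed there either, and at an unadjusted p under 0.05 there were 8 lower and 1 higher, beside 5.44% and 4.16%. These genes were read on the same animals as the members, so their direction is not a second sample of it.

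By class, the psoas genes with an unadjusted p under 0.05 and a negative difference were 8 of 17 endoplasmic reticulum genes besides HSP90B1, 5 of 13 of HSP90 and its cochaperones, 4 of 13 chaperonin and prefoldin genes, 3 of 8 HSP70 and HSP110 genes, 2 of 6 small heat shock genes, 2 of 7 HSP70 exchange factors and 1 of 18 DNAJ genes. Of the following, chosen after their values were seen, none passed: the HSP110 protein HSPH1, which recycles HSP70, differed by -1.08 ± 0.30, the collagen chaperone SERPINH1 by -0.69, the small heat shock protein HSPB8 by -0.81 ± 0.22 and the endoplasmic reticulum HSP70 HSPA5 by -0.41. HSPB6, a further small heat shock gene, differed by 0.53 ± 0.29, in the opposite direction.

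**Figure D4:**
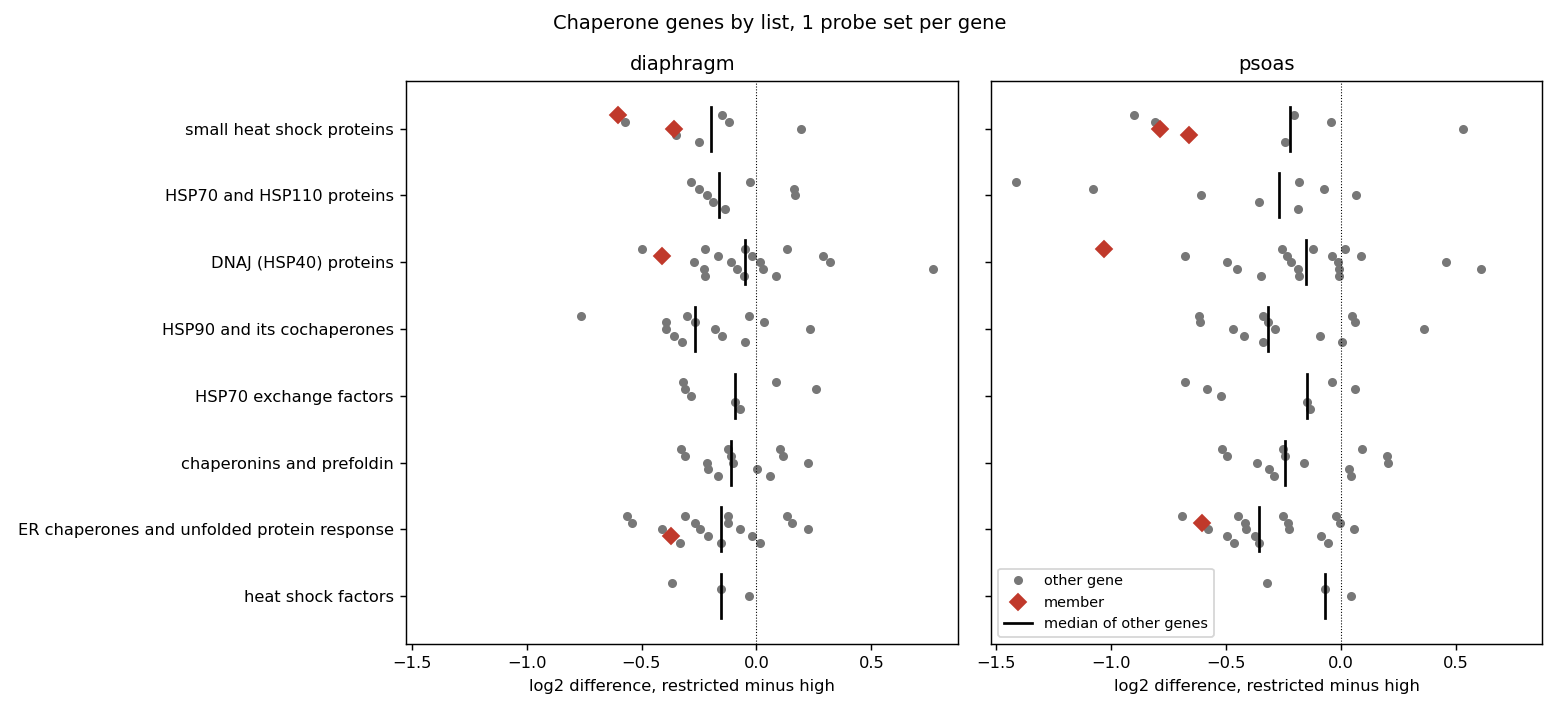
Restricted minus high differences (log2) of chaperone genes in diaphragm and psoas, 1 point per gene by its brightest probe set, grouped into 8 lists, with members as diamonds and the median of the other genes as a bar. Most points lie below 0 in the psoas (67 of 85 other genes), and none of them passed the test.

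Between the muscles, 14 of the 85 other chaperone genes were higher and 6 lower in psoas (limma, adjusted p under 0.05), or 23.5% in all. Over all tested probe sets 14.6% were higher and 12.4% lower, which makes 27.0%. Of these 20, 10 passed under all 14 alternative settings. The counts were 7 higher and 4 lower without animal 3, and 8 and 5 without animal 2. With the animal as a block, which takes account of both muscles coming from the same pigs, they were 20 higher and 8 lower. The count over all tested probe sets rose with the block as well, as given under the processing below. No share over all tested probe sets is set beside the counts with an animal left out. These shifts are therefore not read as particular to chaperones. Hepatocyte, endothelial, immune and fibroblast markers were also lower in psoas, as given above, and their part in these differences was not tested.

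HSPA2, an HSP70 known best from the testis, was 3.40-fold lower in psoas than in diaphragm (a difference of -1.77 ± 0.23, adjusted p = 0.000122 by limma). Its psoas means of 4.62 and 4.69 at the high and restricted levels lay near the filter level of 4, and its diaphragm means were 6.56 and 6.28. DNAJA4, a J-domain protein related to DNAJA1, was also lower (-1.15 ± 0.30, adjusted p = 0.0112), as was DNAJA3, the mitochondrial one (-0.26), whereas DNAJC24 (0.56), DNAJC8 (0.35) and DNAJA2 (0.30) were higher in psoas. DNAJA3, DNAJC8 and DNAJA2 lost their call with the actin measure as a covariate (adjusted p = 0.0512, 0.0697 and 0.0557), and they passed under 11, 12 and 7 of the 14 alternatives.

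Of the 6 small heat shock genes tested besides the members, HSPB6, which binds actin-associated partners in smooth and striated muscle, was lower in psoas (-0.96 ± 0.22, adjusted p = 0.00543), and its second probe set was lower too (-1.35). HSPB11 was higher (0.77 ± 0.17, adjusted p = 0.00356); despite its name it is known as a subunit of the intraflagellar transport complex of cilia. The 4 prefoldin genes that passed, whose product hands unfolded actin and tubulin to the chaperonin, were all higher in psoas: PFDN4 by 0.89 ± 0.09 (adjusted p = 1.07e-05), PFDN1 by 0.44, PFDN6 by 0.23 and PFDN5 by 0.19. PFDN4 and PFDN1 passed under all 14 alternatives, PFDN6 under 9 and PFDN5 under 6. No other gene of the 13 in the chaperonin list passed in this fit, but with the animal as a block VBP1, also a prefoldin subunit, was lower in psoas (-0.19 ± 0.06, adjusted p = 0.0432).

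In the HSP90 and exchange factor lists, the HSP90 cochaperone PTGES3 (0.44), the ubiquitin ligase STUB1 (0.25) and HSPBP1 (0.68) were higher in psoas. All 3 lost their call with the actin measure as a covariate, at adjusted p = 0.07, 0.123 and 0.143, and HSPBP1 also in the fit that blocked on the animal, at an adjusted p of 0.0566. In the endoplasmic reticulum list the stress-induced transcription factor ATF4 (0.52; its second probe set, at 0.19, did not pass) and the J-domain protein DNAJB11 (0.31) were higher, and DERL1 (-0.51), a channel component of protein disposal, and the lectin chaperone CANX (-0.25) were lower. ATF4 and DERL1 passed under all 14 alternatives, and DNAJB11 and CANX under 8 each. HSF1, the factor that switches on heat shock genes, was higher in psoas by 0.46 ± 0.11 (adjusted p = 0.00789). No chaperone gene of the 85 passed for feeding by muscle or for sex (limma; 5 and 16 at an unadjusted p under 0.05, all 16 lower in females, beside 4.87% of all tested probe sets).

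The likeness of other genes to the members was measured by Pearson's r over the 16 arrays after each muscle's mean was subtracted, among 4570 other genes. These 16 points come from 8 animals and share feeding level and sex, and the r values describe them without a test. Each gene was read by its brightest probe set, which for DNAJA1 was Ssc.8473.1.S1_at. CRYAB and DNAJA1 were each other's closest gene, at r = 0.97. The other DNAJA1 probe set correlated with Ssc.8473.1.S1_at at only -0.15 in the diaphragm and -0.09 in the psoas. After the members, CRYAB was followed by CCT6A (0.94), a subunit of the cytosolic chaperonin, by HSP90AA1 (0.93), the inducible cytosolic HSP90, and by STIP1 (0.91), which links HSP70 to HSP90. HSP90B1 stood at rank 19 (0.87) and HSPB7 at rank 41 (0.85) from CRYAB.

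For DNAJA1 the closest genes besides CRYAB were CCT6A (0.96), HSP90AA1 (0.94) and HSPH1 (0.93). HSPB7 was closest to AARS (0.88), which charges alanine tRNA, DDX39B (0.86), an RNA helicase of mRNA export, and STIP1 (0.85), with CRYAB at rank 4. HSP90B1 was closest to METTL17 (0.94), STX4 (0.94), a syntaxin of vesicle fusion, and HSPA9 (0.93), the mitochondrial HSP70.

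The values of 2 of these genes show what the likeness rests on. HSP90AA1 read 13.06, 13.16, 12.33 and 12.72 in the psoas of the high-fed animals 1, 4, 6 and 7 and 12.64, 12.52, 12.16 and 12.26 in the restricted animals 2, 3, 5 and 8. HSPH1 read 9.78, 10.12, 7.99 and 9.13 against 8.93, 8.22, 7.49 and 8.05. In both, the high-fed males 1 and 4 were highest and the restricted female 5 lowest in the psoas, as for CRYAB and DNAJA1, which follows from how they were picked. In the diaphragm the high-fed male 4 was highest for HSP90AA1 (13.19), HSPH1 (10.21), CRYAB (13.82) and DNAJA1 (10.03). The lowest diaphragm value was that of animal 1 for HSPH1 (8.37), but of animal 8 for CRYAB and DNAJA1.

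**Figure D5:**
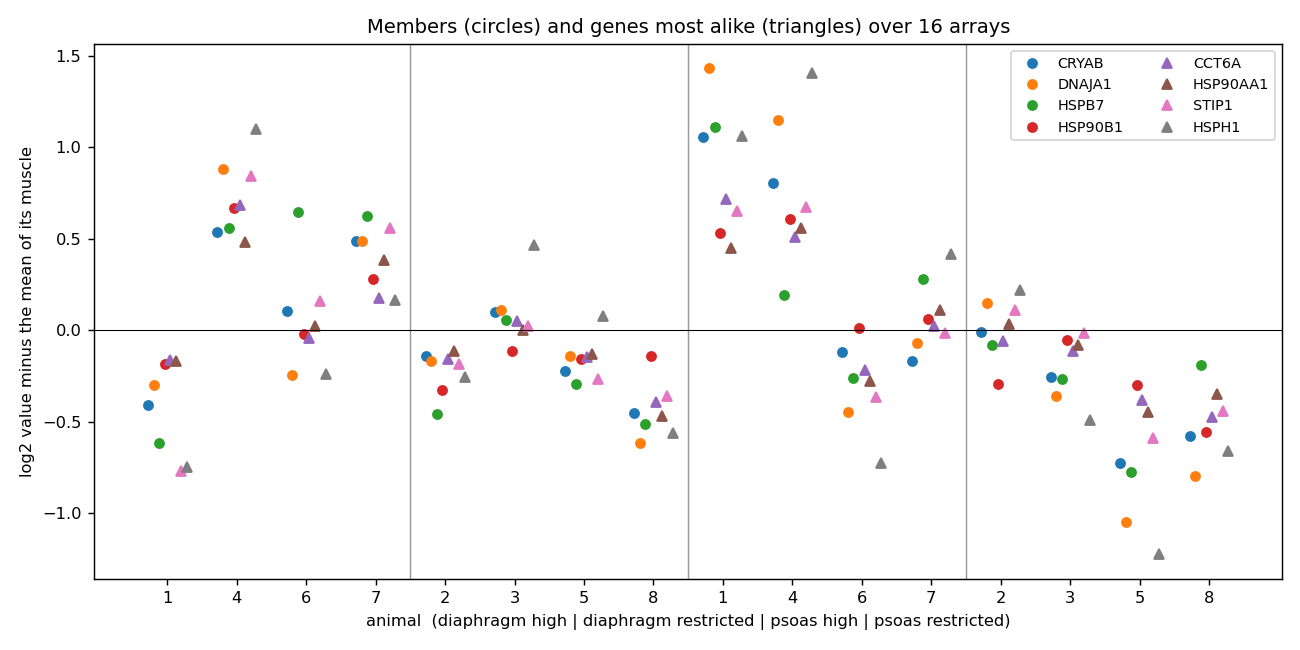
Log2 value minus the mean of its muscle on each of the 16 arrays for the 4 members (circles, brightest probe set of each gene) and CCT6A, HSP90AA1, STIP1 and HSPH1 (triangles), by group and animal. The triangles were picked for their likeness to the members. The points of an array lie mostly high in diaphragm animals 4 and 7 and psoas animals 1 and 4. They lie mostly below the muscle mean in diaphragm animals 1, 2, 5 and 8 and psoas animals 3, 5, 6 and 8. Of these, diaphragm animal 1 and psoas animal 6 were high-fed.

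The second CRYAB probe set was nearest to other genes. Those most like it, chosen after its values were seen, were DUSP1 (0.82), a stress-induced phosphatase, RBM3 (0.81), a cold-induced RNA-binding protein, and ARL6IP5 (0.80), and the most opposite were KIAA0907 (-0.88), NXF1 (-0.86) and ZNF706 (-0.85). None of these 6 is on a chaperone list.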

How the data were processed

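The authors deposited 1 table of log2 expression values for the 16 arrays; per the submitters' processing notes GCRMA was used, and the annotation build behind the probe sets is not given in the sources used here. The intensities of single probes were not used here, and the number of arrays limits the precision. Symbols came from the platform annotation: 10099 probe sets have 1 symbol, 198 several and 13826 none. After the 124 control probe sets were left out, those at or above 4 on at least 4 arrays were fitted in R 4.3.3 (limma 3.58.1), and p-values were adjusted over all 11467 by Benjamini and Hochberg's method: feeding within each muscle with sex as a covariate, muscle with feeding and sex, feeding by muscle on each animal's difference, and sex on each animal's mean. The fits for feeding in the psoas, for muscle and for sex were run on simulated data with independent arrays. Those for feeding in the diaphragm and for feeding by muscle were not, and the simulation left out the sharing of animals between muscles. The same animal gave both muscles, per the labels, and its deviations from the group means correlated between them at 0.269 to 0.409. The members and gene lists were chosen with earlier results of these data known. Named genes are all member probe sets, up to 4 called genes per list and direction by smallest p, and the 3 genes most alike to each member. Promoter and protein sequences were not used here.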

Additional observations from a re-analysis of the deposited data

Results flagged for a closer look

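HSPB7 in the diaphragm of the high-fed animal 1 read 9.57, against 10.75 to 10.84 in the other 3 high-fed animals. The gap to the nearest of them was 0.927 of the group's whole range. Of 28 groups of 4 arrays examined, it was the 1 with a sample this far from the others. Chance flags about 1 group in 20, so 1 flag among 28 groups is no more than chance gives. The same array had the highest actin 3' minus 5' difference of the high-fed diaphragms, 4.28.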

How the results depend on the processing

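For feeding in the diaphragm, the count of probe sets that passed was 0, and it was 1 with no filter on low values, 2 without sex as a covariate and 0 to 2 when an animal was left out, of which members 0 to 1 (the second CRYAB probe set, without animal 3). In the psoas it was 0, and 2 with no filter and 0 to 1 when an animal was left out. Between muscles, 0 to 3 members passed when an animal was left out, the 3 without animal 1. For sex, 21 probe sets passed, 13 to 23 when an animal was left out and 39 with the animal as a block. The block changed the call of no member probe set. With it the psoas difference of CRYAB was -0.79 ± 0.27. Between muscles 3836 of the 11467 tested probe sets passed with the block, against 3094 without it. Feeding by muscle was fitted on differences within animals, so it has no further block. The causes of these shifts were not tested. With 4 animals per group, small differences of the members could not be told from the spread.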

Other observations

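The second CRYAB probe set was highest in the restricted diaphragm, and the immediate early genes, which cells switch on within minutes of a stimulus, had positive differences there too. Of the 6 tested, none passed (limma), and 3 were higher at an unadjusted p under 0.05, beside 4.16% of all tested probe sets. The median difference was 0.91, against -0.01 over all tested probe sets. FOS, chosen after its values were seen, differed by 3.26 ± 0.88 (adjusted p = 0.477), ATF3 by 0.91 ± 0.23 and JUN by 0.91 ± 0.25 (adjusted p = 0.477 for both). The high-fed diaphragm mean of ATF3, 4.19, lay near the filter level of 4. In the psoas the median was 0.12, and FOS differed by 0.57 ± 0.97. The actin 3' minus 5' difference was 4.07 to 4.33 in the restricted diaphragms of animals 2, 3 and 5. A link of the second CRYAB probe set to these genes or to the actin measure was not tested. Of the fibre type genes none passed for feeding in either muscle (limma), with 0 at an unadjusted p under 0.05. Between the muscles MYH2 was higher in psoas by 2.74 ± 0.14 (adjusted p = 3.84e-09, limma), ATP2A1 by 0.98 and TPM1 by 0.34. TPM3 (-0.64) and CASQ2 (-1.48) were lower, but the psoas means of CASQ2, 4.02 and 4.32, lay near the filter level of 4. The slow fibre gene MYH7 did not pass (-0.16, adjusted p = 0.0966, limma). MYL3, also on the slow fibre list, did not pass either. Its means were higher in psoas (13.67 high-fed, 13.96 restricted) than in diaphragm (13.52 and 13.38).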
